A study of Mus musculus with 28 samples.

Results

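This account compares 14 plasma cell tumors that grew in oil granulomas with 11 that grew in lymph nodes, 25 of the 28 samples of a mouse expression series. Members were taken by their titles. The 14 oil granuloma tumors, titled adoptive-transfer, followed the transfer of premalignant B cells and were 105 to 158 days of age by their labels. The 11 lymph node tumors, titled spontaneous, arose without transfer and were 40 to 162 days of age, 9 of them 105 days or older. All 25 were of strain C.iMyc/IL-6 on a BALB/c background, so both groups carried the same strain label, while transfer and the tissue of growth separated them completely. The remaining 3 samples, normal splenic B cells, were not used. Whole frozen tumor tissue was ground, and its total RNA was labelled and hybridised to 1-colour Illumina arrays. The labels do not name the host of the transfer, the oil, or the promoters that drive the transgenes, and they do not state that each tumor came from a separate animal, so p-values measure the spread between these samples. Because every oil granuloma tumor was also a transferred tumor, the tissue and the way the tumor arose cannot be told apart.

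Plasma cells are antibody-secreting B cells with an expanded endoplasmic reticulum. In BALB/c mice their tumors are known to depend on deregulated Myc, and interleukin-6 acts on them as a growth factor through its receptor and the factor STAT3. An oil granuloma is the inflammatory tissue that forms on peritoneal surfaces around oil droplets, made of macrophages, many of them lipid-laden, with neutrophils, fibroblasts and vessels, covered by mesothelium. A lymph node has its own stroma, high endothelial vessels, T cells and B cells. Each whole-tumor value therefore adds the tumor cells to the cells around them, and fewer cells of a type cannot be told apart from less RNA per cell.

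Markers of plasma cells were found in both groups, though not each of them in every tumor. The plasma cell transcription factors Xbp1 and Irf4 were detected in all 25 tumors, and Pax5, the factor of B cells that plasma cells shut off, was detected in 0 of 25. The plasma cell genes Sdc1, Prdm1 and Jchain were detected in 12, 11 and 12 of 14 oil granuloma tumors. In the 11 lymph node tumors they were detected in 11, 10 and 11. Tnfrsf13c, a receptor gene of B cells, was detected in all 25 tumors. Detection here means a detection p under 0.05, and all levels are background-corrected, quantile-normalized log2 intensities, on which 1 unit is a 2-fold difference and values near 4.5 lie close to background.

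Some arrays stood apart from the rest. Between 14472 and 16756 of 45281 probes were detected in the lymph node tumors, while the oil granuloma tumors ran from 11544 to 16827, with the lowest counts in tumor 1 (11544) and tumor 5 (13669). These 2 tumors lay far from all others on the first 2 principal components, which carried 26.3% and 14.9% of the variance. The mean of 10 exocrine pancreas genes was raised in 6 lymph node tumors and in 1 oil granuloma tumor, number 1. It ran from 5.02 to 8.28 in the oil granuloma group and from 5.07 to 13.51 in the lymph node group. The Y-linked gene Eif2s3y was detected in 0 oil granuloma tumors and in 8 lymph node tumors. Pancreas genes and X- or Y-linked genes are counted but not described below.

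Of 8970 genes tested, 195 (2.17%) differed between the tumor kinds at an adjusted p under 0.05 (limma, Benjamini-Hochberg over all genes). In the oil granuloma tumors 100 genes (1.11%) were higher and 95 (1.06%) were lower, and 1538 genes had an unadjusted p under 0.05. A difference of at least 1 log2 unit was seen in 68 of the called genes (0.758%), 23 higher (0.256%) and 45 lower (0.502%). The median log2 difference over all tested genes was 0.04, and over the 195 called genes the median size was 0.83. Of the 195, 10 genes, 7 on chromosomes X or Y and 3 of the pancreas list, are not described below, which leaves 94 higher and 91 lower among 8663 genes. With median scaling in place of quantile normalization the share of higher genes among those called went from 51.3% to 29.2%, with 48 genes called in all.

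The count moved with single tumors and with the markers named above. It was 439 without oil granuloma tumor 5, and 121 without oil granuloma tumor 11. Leaving out lymph node tumor 7, 8, 9 or 10 gave 102, 107, 101 and 107. Without oil granuloma tumors 1 and 5 together it was 578, and all 195 genes were among these. With the log2 level of Eif2s3y as a covariate 1 gene was called. Between the 14 oil granuloma and 3 lymph node tumors that had Xist and no Eif2s3y 3 were called. In that last comparison 194 of the 195 genes kept their sign, with a median size of 0.78 against 0.83 and a median standard error of 0.33 against 0.20. Without the 7 tumors of raised pancreas mean 35 genes were called, 30 of them among the 195, all 195 kept their sign, and the median size was 0.86. The same refits were made for each of the named genes, defined under the processing below, and only some of their values are given. With Eif2s3y as a covariate 32 named genes lost their call. Among tumors with Xist and no Eif2s3y 31 did, and without the tumors of raised pancreas mean 26 did. Whether the pancreas or sex-linked transcripts have a part in any single gene below was not tested otherwise.

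**Figure D1:**
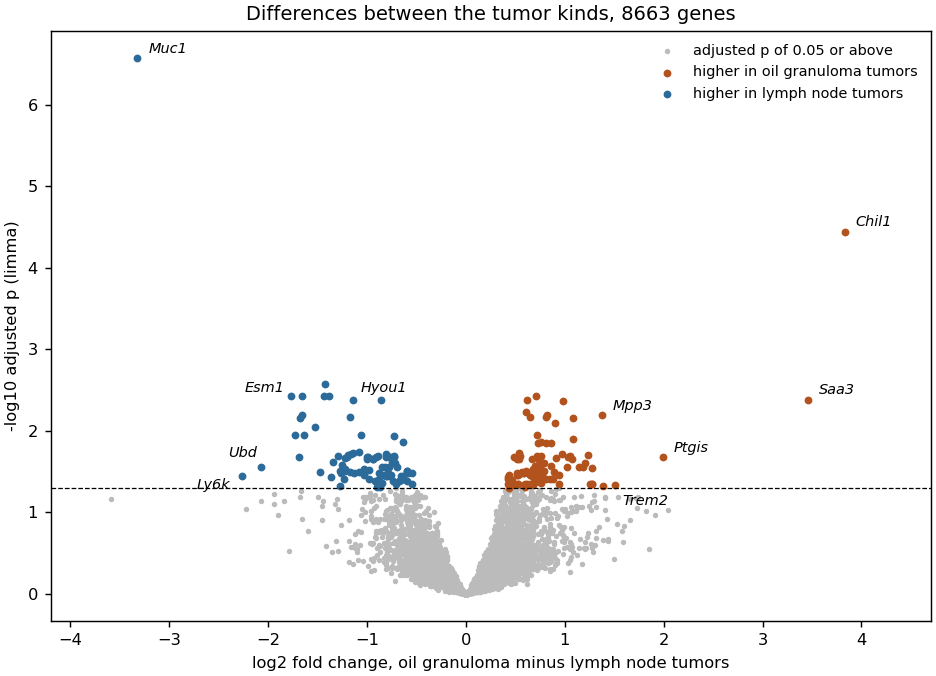
Log2 difference between oil granuloma and lymph node tumors (horizontal axis) against −log10 of the adjusted p from limma (vertical axis) for 8663 genes, 1 point a gene, with an adjusted p of 0.05 as the dashed line. Muc1, at -3.32, and Chil1, at 3.83, lie farthest from the other genes, with Saa3 at 3.46 below them.

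The greatest difference in favour of the oil granuloma tumors was that of Chil1, a secreted chitinase-like protein of macrophages and neutrophils. Its lowest, median and highest level in the oil granuloma tumors were 7.62, 9.36 and 11.80, against 4.72, 5.41 and 7.49 in the lymph node tumors. All 14 oil granuloma tumors lay above all 11 lymph node tumors, and 2 of 8970 genes (0.0223%) had groups that did not overlap, Chil1 and Muc1. The log2 difference was 3.83 ± 0.47 (SE), a 14.2-fold difference, with a limma adjusted p of 3.6e-05. Chil1 was detected in 14 of 14 oil granuloma and 9 of 11 lymph node tumors, and the lowest lymph node levels were near background. Without background correction the log2 difference was 2.46, with the call kept. In the 5 lymph node tumors without raised pancreas genes Chil1 ran from 4.72 to 7.49, and in the 3 with Xist and no Eif2s3y from 4.86 to 7.49, below every oil granuloma tumor in both cases.

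Saa3, an acute phase serum amyloid A that mouse macrophages and adipocytes make outside the liver, came next. Its lowest, median and highest levels were 8.54, 11.36 and 13.88 in the oil granuloma tumors and 5.78, 7.99 and 11.72 in the lymph node tumors. The groups overlapped, since 1 lymph node tumor reached 11.72, and 6 oil granuloma tumors lay above that value. The log2 difference of 3.46 ± 0.61, 11-fold, had an adjusted p of 0.0041, and in the deposited log2 values it was 2.84. With Eif2s3y as a covariate the differences were 3.90 ± 0.91 for Saa3 and 3.53 ± 0.69 for Chil1, with adjusted p-values of 0.18 and 0.075, and without the tumors of raised pancreas mean that of Saa3 was 3.41 ± 0.76 with an adjusted p of 0.058.

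Promoters are shown for Chil1 and Saa3, the most raised genes, and for Muc1, the most lowered gene described further on. Each runs from 250 bases before to 50 after the gene's start, from RefSeq on GRCm38.p6. Capitals mark a match to the C/EBP letters TTGCNNAA on either strand.
Chil1, chr1:134181906-134182205, plus strand: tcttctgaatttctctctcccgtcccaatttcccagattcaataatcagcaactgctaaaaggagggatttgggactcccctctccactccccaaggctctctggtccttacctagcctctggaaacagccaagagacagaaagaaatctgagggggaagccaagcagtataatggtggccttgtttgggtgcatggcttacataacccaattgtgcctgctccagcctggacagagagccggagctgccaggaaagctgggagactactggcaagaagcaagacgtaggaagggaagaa
Saa3, chr7:46715627-46715926, minus strand: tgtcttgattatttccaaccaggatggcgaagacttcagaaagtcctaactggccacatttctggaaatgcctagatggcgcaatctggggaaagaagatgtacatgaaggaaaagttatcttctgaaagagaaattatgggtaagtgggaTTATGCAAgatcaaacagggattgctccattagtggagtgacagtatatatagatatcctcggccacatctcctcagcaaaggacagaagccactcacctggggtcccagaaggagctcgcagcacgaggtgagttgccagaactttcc
Muc1, chr3:89228806-89229105, plus strand: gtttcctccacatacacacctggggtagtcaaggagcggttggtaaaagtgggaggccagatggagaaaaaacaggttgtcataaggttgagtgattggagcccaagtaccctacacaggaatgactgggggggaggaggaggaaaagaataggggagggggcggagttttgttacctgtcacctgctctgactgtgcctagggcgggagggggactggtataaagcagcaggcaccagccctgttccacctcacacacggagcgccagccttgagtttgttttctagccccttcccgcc
The C/EBP letters were found in Saa3 alone, at bases 152 to 159 of the window, and are held by 10.8% of 32851 RefSeq promoters of the same length. The letters TTCNNNGAA of STAT factors, a narrow form of the NF-kB motif and the E-box CACGTG were searched on both strands. None of them was in these 3 windows, and they are held by 8.3%, 0.411% and 7.15% of all promoters. Looser forms of the NF-kB motif were not searched, so this search does not show that the windows lack NF-kB sites.

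Chil1 and Saa3 were the only acute phase and inflammation genes called. Of 17 tested genes in that list 2 were higher, against 1.11% of all genes, 0 were lower and the median log2 difference was 0.03. The log2 difference was -0.17 for Lcn2, an iron-scavenging acute phase protein, 0.28 for the cytokine Il1b and 0.14 for haptoglobin, with adjusted p-values of 0.94, 0.83 and 0.94.

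Genes of lipid-laden macrophages were higher in part. Of 17 tested foam cell and lipid handling genes 2 were higher, Trem2 and Npc2, and 0 were lower, against 1.11% and 1.06% of all genes. The median was 0.55 against 0.04 over all genes. Trem2, a macrophage receptor for lipids, had lowest, median and highest levels of 6.11, 7.83 and 10.31 in oil granuloma and 5.45, 6.48 and 7.52 in lymph node tumors. Oil granuloma tumors above all lymph node tumors numbered 10 of 14, and the log2 difference was 1.5 ± 0.41 with an adjusted p of 0.047. That call was lost on leaving out any one of 16 tumors, with adjusted p-values of 0.052 to 0.084. Npc2, which carries cholesterol out of lysosomes, spanned 8.79, 9.64 and 10.21 against 8.6, 8.97 and 9.30, a difference of 0.65 ± 0.17 with an adjusted p of 0.035, lost without any one of 13 tumors. Gpnmb, a lysosomal membrane protein of foam cells, had the greatest difference of the list at 1.74 ± 0.51 but an adjusted p of 0.065.

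General macrophage markers gave a smaller shift. Of 21 tested tissue macrophage genes 1, an X-linked gene, was higher, 0 were lower, and the median was 0.32. The list mean ran from 6.72 to 9.93 in oil granuloma and 6.94 to 7.96 in lymph node tumors, so the groups overlapped. Adgre1, a surface receptor of mature macrophages, differed by 0.47 ± 0.36 with an adjusted p of 0.53, while dimmer probes of it gave -0.27 and 0.08. Csf1r, the receptor of the macrophage growth factor, differed by 0.52 ± 0.31 with an adjusted p of 0.4. Lyz2, the lysozyme of myeloid cells, differed by 0.90 ± 0.46 with an adjusted p of 0.31. Its near-identical copy Lyz1, chosen after its values were seen, was called at 1.15 ± 0.28 with 0.028, and probes may not separate the copies.

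Within the oil granuloma tumors Chil1, Saa3, Trem2 and Gdf3 followed the macrophage list, in pairs of gene and list chosen after the differences were seen. Chil1 correlated with the mean of 21 macrophage genes at r = 0.832 and rho = 0.921 over 14 tumors, and Saa3 at r = 0.825 and rho = 0.807. For Trem2 the values were r = 0.839 and rho = 0.912, and for Gdf3, a ligand of the TGF-beta family, r = 0.923 and rho = 0.899. Permutation p-values adjusted over 24 relations were 0.00024, 0.00139, 0.00042 and 0.00024 for r, and 0.00024, 0.00392, 0.00024 and 0.00024 for rho. Without the 2 tumors of the most extreme macrophage means, numbers 6 and 7, r was 0.935, 0.83, 0.844 and 0.821. In the 11 lymph node tumors the same correlations were 0.203, 0.551, 0.659 and -0.0343, with adjusted p-values of 0.678, 0.122, 0.0553 and 0.917. The correlations of the groups were not tested against each other.

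Gdf3 itself was detected in 13 oil granuloma and 3 lymph node tumors. It spanned 5.05, 6.21 and 8.38 against 4.63, 5.04 and 5.55 as lowest, median and highest, with 11 oil granuloma tumors above all lymph node tumors and a difference of 1.24 ± 0.27 (adjusted p = 0.02). Lat2, an adaptor of B cell and myeloid receptor signalling, spanned 7.00, 8.04 and 11.17 against 6.60, 6.91 and 7.74, a difference of 1.27 ± 0.34 with an adjusted p of 0.044 that 18 of the 25 tumors each removed when left out. Its correlation with the macrophage mean was weaker, at r = 0.664 in the oil granuloma and 0.135 in the lymph node tumors (adjusted permutation p = 0.0272 and 0.717).

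Few neutrophil genes passed the test. Of 10 tested, Chil1 was called and 9 were not. S100a8 and S100a9, the calprotectin subunits, differed by 0.33 ± 0.83 and 1.06 ± 0.83 with adjusted p-values of 0.88 and 0.54. The list mean was highest in oil granuloma tumor 5, at 10.96, and ran from 5.53 to 7.78 in the lymph node tumors.

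Among stromal and mesothelial genes, single members were higher. Ptgis, the prostacyclin synthase of vessels and fibroblasts, had levels of 5.07, 7.41 and 9.67 in oil granuloma and 4.51, 5.43 and 7.29 in lymph node tumors, lowest, median and highest. It was detected in 13 of 14 and 6 of 11 tumors, 8 oil granuloma tumors lay above all lymph node tumors, and the difference was 1.99 ± 0.45 with an adjusted p of 0.021. Upk3b, a uroplakin made by mesothelium, spanned 5.27, 6.52 and 7.96 against 4.78, 5.39 and 6.15. With 10 of 14 oil granuloma tumors above the highest lymph node tumor, its difference was 1.18 ± 0.28 (adjusted p = 0.028), and it was the one called gene of 5 tested in the mesothelium list, whose keratins Krt8 and Krt18 lay on the other side at -0.71 and -1.0 (adjusted p of 0.32 and 0.065). Ecm1, an extracellular matrix protein, spanned 6.83, 7.89 and 10.73 against 6.18, 6.87 and 7.96, a difference of 1.38 ± 0.38 with an adjusted p of 0.047 that was lost without any one of 18 tumors.

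The fibroblast and matrix list had 0 of 26 genes called and a median of 0.10. Col1a1, a chain of type I collagen, differed by -0.12 ± 0.49 with an adjusted p of 0.93. The spread was wide: the list mean ran from 5.51 to 8.77 over the oil granuloma tumors, 3 of which lay below all lymph node tumors, and from 6.59 to 8.36 over the lymph node tumors. Across the oil granuloma tumors Ptgis followed that mean (r = 0.82, rho = 0.837, adjusted permutation p = 0.00158 and 0.0023, and r = 0.733 without tumors 7 and 9). In the lymph node tumors r was 0.859 and rho 0.6 (adjusted permutation p = 0.00378 and 0.0971). There r was 0.452 without tumors 2 and 4, so its size depended in part on those 2 tumors.

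**Figure D2:**
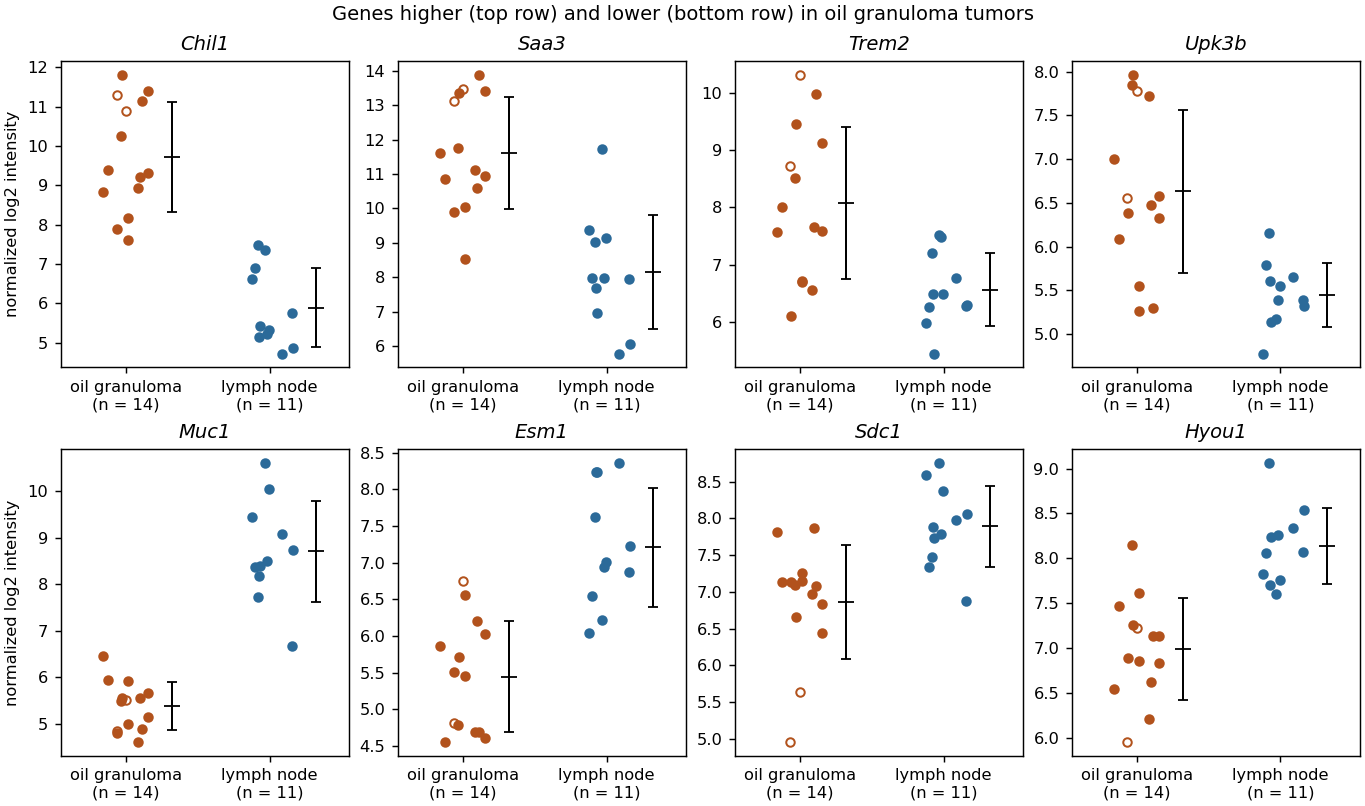
Normalized log2 intensity of 8 genes in each tumor, 14 from oil granulomas and 11 from lymph nodes, with the mean and SD beside the points; open circles are oil granuloma tumors 1 and 5. Groups of Chil1 and Muc1 do not overlap, while those of the other 6 genes do.

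Several metabolic and nuclear genes were higher by smaller amounts. Pkm, the pyruvate kinase of dividing cells, spanned 12.04, 12.76 and 13.41 in oil granuloma and 11.34, 11.93 and 12.55 in lymph node tumors, with a difference of 0.86 ± 0.18 (adjusted p = 0.014). Gapdh, another enzyme of glycolysis, differed by 0.56 ± 0.14 (adjusted p = 0.033), and its call was lost without any one of 7 tumors. These were 2 of 12 glycolysis genes tested, against 1.11% of all genes higher, while 0 were lower and the median was 0.10. Slc2a1 and Hk1, which import and trap glucose, differed by -0.14 and -0.16 (adjusted p of 0.82 and 0.63). Chosen after their values were seen, Rcc1, the nucleotide exchange factor of Ran, Drosha, the nuclease that crops microRNA precursors, and Twnk, the mitochondrial DNA helicase, were higher by 1.07 ± 0.25, 0.71 ± 0.12 and 1.08 ± 0.22, with adjusted p-values of 0.022, 0.0037 and 0.013. For Twnk the dimmer of its 2 probes gave 0.15. Mdk, the heparin-binding growth factor midkine, chosen likewise, was above all lymph node tumors in 12 oil granuloma tumors and differed by 1.08 ± 0.21 (adjusted p = 0.0069).

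The remaining genes among the 12 greatest differences in this direction belong to no list used here. Mpp3, a membrane scaffold protein, spanned 5.31, 7.52 and 8.17 against 5.02, 5.89 and 6.98, with 11 of 14 oil granuloma tumors above all lymph node tumors and a difference of 1.37 ± 0.26 (adjusted p = 0.0064). The dynein heavy chain Dnah11, the zinc finger gene Zfp518b, the membrane protein gene Palm and the F-box gene Fbxw17 differed by 1.28 ± 0.31, 1.27 ± 0.34, 1.26 ± 0.34 and 1.21 ± 0.29, with adjusted p-values of 0.028, 0.045, 0.045 and 0.025. Leaving out single tumors removed the call of Dnah11 in 5 cases, of Palm in 18 and of Zfp518b in 20, and that of Mpp3 and Fbxw17 in none.

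In the other direction Muc1, a membrane mucin of epithelial surfaces that human plasma cells also carry, stood apart. Its lowest, median and highest levels were 4.61, 5.49 and 6.44 in the oil granuloma tumors, close to background, and 6.68, 8.50 and 10.60 in the lymph node tumors. It was detected in 8 of 14 and 11 of 11, and every lymph node tumor lay above every oil granuloma tumor. The difference was -3.32 ± 0.31, 10-fold, with an adjusted p of 2.7e-07, and its 4 probes gave -2.90 to -3.32. The call held in all 42 alternatives run, with differences of -1.82 to -3.56. In the 5 lymph node tumors without raised pancreas genes Muc1 ran from 7.72 to 10.05, and in the 3 with Xist and no Eif2s3y from 6.68 to 8.74, above every oil granuloma tumor.

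Other epithelial genes were lower with Muc1. A list of 18 tested epithelial junction and surface genes, put together after values were seen and so no independent evidence of its direction, had 8 lower, 0 higher and 17 below 0, with a median of -0.88. Over all tested genes 1.06% were lower and 44.6% lay below 0. The called members were Muc1, the tricellular junction protein Lsr at -1.73 ± 0.35, the membrane protease St14 at -1.43 ± 0.25, Smagp at -1.37 ± 0.35, the claudin Cldn7 at -0.99 ± 0.22, E-cadherin (Cdh1) at -0.94 ± 0.22, the tight junction protein Marveld3 at -0.91 ± 0.20 and the trafficking protein Rab25 at -0.85 ± 0.20, with adjusted p-values of 0.0037 to 0.036 for the last 7. Of 7 tested claudins as a family, chosen after values were seen, Cldn7 was lower, Cldn12 was higher at 0.79 ± 0.19 (adjusted p = 0.025), and the median was 0.03. The mean of the 18 epithelial genes ran from 5.42 to 6.23 in oil granuloma and 6.28 to 7.29 in lymph node tumors, so the groups did not overlap. The genes were chosen after values were seen and include Muc1, so this separation is no independent result. Lsr was 5.48, 7.39 and 8.6 in the lymph node tumors against 4.62, 5.15 and 7.86 in the oil granuloma tumors, lowest, median and highest. With Eif2s3y as a covariate its difference was -1.08 ± 0.49 (limma adjusted p = 0.69). Without the tumors of raised pancreas mean it was -2.19 ± 0.43 (adjusted p = 0.032). Elf3, an epithelial transcription factor, differed by 0.04 ± 0.18 with an adjusted p of 0.94.

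Values of pancreas and sex-linked markers stand beside these epithelial genes as follows. Without the 7 tumors of raised pancreas mean 3 of the 18 were lower and the median was -0.67; with Eif2s3y as a covariate 1 was lower and the median was -0.86. Over the 11 lymph node tumors the correlation of the pancreas mean with Muc1 was -0.11 and with Lsr -0.54, given as a description. Of the gut epithelium markers Epcam was detected in 0 oil granuloma tumors and 1 lymph node tumor and Vil1 in 1 of each, while Lgals4 was detected in all 25 and differed by 0.13 ± 0.37 (adjusted p = 0.9).

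None of the 18 listed endothelial genes passed the test. Their median was -0.69, and 16 of 18 lay below 0, as did 44.6% of all tested genes. Plvap, a protein of vessel fenestrae, had the greatest difference at -1.90 ± 0.64 with an adjusted p of 0.11, and Pecam1, which encodes CD31, was at -0.74 ± 0.27 with 0.13, while a dimmer probe of Pecam1 gave -0.02. The list mean ran from 5.08 to 8.67 in the oil granuloma tumors and from 7.17 to 7.79 in the lymph node tumors. The lymph node tumors kept within a narrow band, while 9 oil granuloma tumors lay below it and 3 above it.

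Endothelial genes outside that list were among the 12 with the greatest differences in this direction. Esm1, a proteoglycan secreted by activated endothelium, spanned 4.56, 5.48 and 6.75 in oil granuloma and 6.04, 7.00 and 8.36 in lymph node tumors. Oil granuloma tumors below all lymph node tumors numbered 11 of 14, and the difference was -1.77 ± 0.30 with an adjusted p of 0.0037. Gpihbp1, which holds lipoprotein lipase on capillary walls, spanned 4.35, 6.62 and 8.26 against 7.06, 7.95 and 8.79, 9 oil granuloma tumors lay below all lymph node tumors, and the difference was -1.69 ± 0.38 with 0.021. In the oil granuloma tumors Gpihbp1 followed the endothelial mean (r = 0.926, rho = 0.903, both with an adjusted permutation p of 0.00024, and r = 0.883 without tumors 7 and 9), while Esm1 gave r = 0.545 and rho = 0.508 (adjusted permutation p = 0.0766 and 0.106). In the lymph node tumors Gpihbp1 gave r = 0.168 and rho = -0.0182 (adjusted permutation p = 0.717 and 0.967) and Esm1 r = 0.134 and rho = 0.0455 (0.717 and 0.967), and the groups' correlations were not tested against each other.

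**Figure D3:**
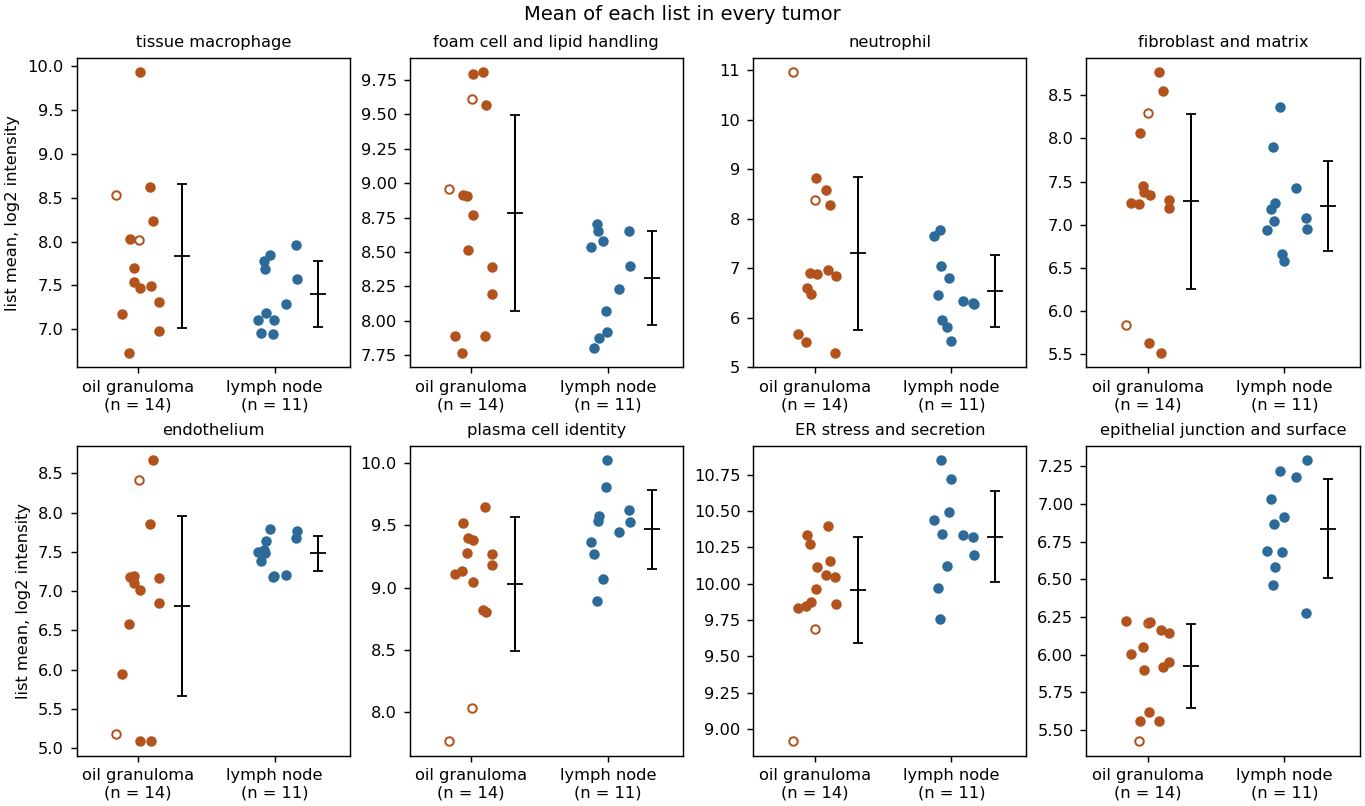
Mean log2 intensity of the tested genes of 8 lists in each tumor, with group mean and SD; open circles are oil granuloma tumors 1 and 5. The epithelial junction and surface list, chosen after values were seen and with Muc1 in it, has groups that do not overlap, which its choice favours. Endothelium runs from 7.17 to 7.79 in lymph node tumors against 5.08 to 8.67 in oil granuloma tumors.

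Few genes of the plasma cell and of protein secretion passed the test. Of 19 plasma cell identity genes 2 were lower, 0 were higher and 17 lay below 0, with a median of -0.41; over all genes 1.06% were lower and 44.6% lay below 0. Sdc1, the plasma cell surface proteoglycan CD138, spanned 4.96, 7.09 and 7.87 in oil granuloma and 6.87, 7.88 and 8.75 in lymph node tumors. Its difference was -1.03 ± 0.26 with an adjusted p of 0.035, the lowest levels were those of oil granuloma tumors 1 and 5, and without both it was -0.77 ± 0.19 with an adjusted p of 0.022. Leaving out any one of 9 tumors took the adjusted p to 0.051 to 0.071. With Eif2s3y as a covariate the Sdc1 difference was -0.55 ± 0.37 (limma adjusted p = 0.83). Without the tumors of raised pancreas mean it was -1.08 ± 0.33 (adjusted p = 0.19). Derl3, which moves misfolded proteins out of the endoplasmic reticulum, spanned 7.13, 9.29 and 9.94 against 9.54, 10.48 and 10.91, a difference of -1.14 ± 0.25 with an adjusted p of 0.019.

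The endoplasmic reticulum list gave 2 lower of 38 tested, 0 higher, 32 below 0 and a median of -0.28. Over all genes 1.06% were lower and 44.6% lay below 0. Hyou1, a chaperone of the endoplasmic reticulum, spanned 5.95, 7.01 and 8.15 in oil granuloma and 7.60, 8.07 and 9.06 in lymph node tumors. 12 of 14 oil granuloma tumors lay below all lymph node tumors, and the difference was -1.14 ± 0.20 with an adjusted p of 0.0041. The main chaperone Hspa5 differed by -0.47 ± 0.21 with 0.25. Outside the lists, and chosen after their values were seen, the disulfide oxidase Ero1b, the fucosyltransferase Fut8 and the translocation protein Tram1 were lower, at -1.26 ± 0.30, -1.16 ± 0.25 and -0.74 ± 0.17, with adjusted p-values of 0.027, 0.019 and 0.025. Hyou1 followed the list mean in both groups, with r = 0.752 over the oil granuloma tumors (rho = 0.67, adjusted permutation p = 0.00536 and 0.0264) and 0.791 over the lymph node tumors (rho = 0.782, 0.00958 and 0.0181). Without the 2 most extreme tumors, oil granuloma 5 and 9 and lymph node 4 and 6, r was 0.615 and 0.544.

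The factors that set plasma cell identity did not pass the test. Xbp1, which drives the secretory program, spanned 11.99, 13.48 and 14.31 against 13.16, 13.98 and 14.57 and differed by -0.49 ± 0.22 (adjusted p = 0.24). Irf4 and Prdm1 differed by -0.19 ± 0.23 and 0.29 ± 0.40 with adjusted p-values of 0.7 and 0.75, and the antibody joining chain Jchain by -0.29 ± 0.27 with 0.62. The 1 probe of Jchain was dim, with medians of 6.16 in oil granuloma and 6.21 in lymph node tumors, which limits what its difference can show. Across the oil granuloma tumors Sdc1 correlated with the mean of the other 18 plasma cell genes at r = 0.878 and rho = 0.71 (adjusted permutation p = 0.00158 and 0.0174). Without tumors 1 and 5 r was 0.463, so the size of r depended in part on those 2 tumors. In the lymph node tumors r was -0.284 and rho -0.0364 (adjusted permutation p = 0.534 and 0.967). Derl3 gave r = 0.384 in the oil granuloma and 0.656 in the lymph node tumors (adjusted permutation p = 0.254 and 0.0553). Muc1 gave r = 0.364 and -0.194 with the plasma cell mean (adjusted permutation p = 0.288 and 0.688).

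Among surface receptors and immune genes, Tnfrsf13c, the receptor for the B cell survival factor BAFF, spanned 5.25, 7.70 and 9.30 in oil granuloma and 7.83, 9.13 and 10.00 in lymph node tumors. Its difference was -1.47 ± 0.37 with an adjusted p of 0.032, lost without any one of 7 tumors. None of the 11 tested mature B cell genes was called, and their median was -0.08. Psmb8, the inducible catalytic subunit of the immunoproteasome that cuts peptides for MHC class I, spanned 8.23, 10.40 and 11.24 against 10.90, 11.60 and 12.17. 9 of 11 lymph node tumors lay above all oil granuloma tumors, the difference was -1.52 ± 0.30 with an adjusted p of 0.009, and its second probe gave -1.39. Of the 4 other immunoproteasome genes tested, chosen after values were seen, none was called: the catalytic subunits Psmb9 and Psmb10 differed by -0.15 ± 0.18 and 0.15 ± 0.19.

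Ubd, a ubiquitin-like protein induced by interferon-gamma, was widely spread in the lymph node tumors, at 4.60, 7.52 and 10.65, against 4.53, 5.32 and 7.24 in the oil granuloma tumors. 6 of 11 lymph node tumors exceeded all oil granuloma tumors, and the difference was -2.08 ± 0.50 with an adjusted p of 0.028. The interferon response list had 0 of 19 genes called and a median of 0.48, on the opposite side from Ubd. Ccl11, the eosinophil-attracting chemokine, spanned 5.05, 6.57 and 7.33 against 6.37, 7.56 and 8.92 and was lower, at -1.23 ± 0.28 (adjusted p = 0.022), the one call among 19 chemokines and receptors. Without the tumors of raised pancreas mean Ccl11 differed by -0.85 ± 0.37 (limma adjusted p = 0.39). With Eif2s3y as a covariate it differed by -1.08 ± 0.42 (adjusted p = 0.58). Ear3, a ribonuclease of eosinophils with near-identical copies its probe may not separate, was lower, at -1.63 ± 0.33 with 0.011. Of the 7 eosinophil markers on the array none passed the filter on detection; the granule protein gene Epx was detected in 1 tumor of each kind and the surface receptor gene Siglecf in 1 oil granuloma tumor.

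Ly6k, a surface protein of the Ly6 family known from testis, was near background in most oil granuloma tumors and variable in lymph node tumors. Its lowest, median and highest levels were 4.47, 4.59 and 8.56 and 4.83, 7.24 and 10.57, with detection in 4 of 14 and 9 of 11. The difference was -2.26 ± 0.58 with an adjusted p of 0.036, lost without any one of 15 tumors. In the 3 lymph node tumors with Xist and no Eif2s3y it ran from 9.10 to 10.57, among the highest of that group, and against these 3 alone the difference was -4.67 ± 0.67 with an adjusted p of 0.010.

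Other genes of the 12 with the greatest differences were Rap1gap, which switches off the small GTPase Rap1, Zcwpw1, a reader of histone methylation known from meiosis, and the vomeronasal receptor gene Vmn1r65. Rap1gap spanned 7.11, 8.04 and 9.13 against 8.47, 9.65 and 11.06, and 10 of 14 oil granuloma tumors lay below all lymph node tumors. The differences were -1.66 ± 0.29, -1.68 ± 0.32 and -1.65 ± 0.31 with adjusted p-values of 0.0037, 0.0069 and 0.0064. Their probes disagreed in part: a dimmer probe of Rap1gap gave -0.44 and one of Zcwpw1 gave -0.02. Bcl2l2, the survival protein BCL-w, was lower, at -0.80 ± 0.21 (adjusted p = 0.036), 1 of 11 BCL2 family genes, and that call was lost without any one of 9 tumors.

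The genes for which the strain is named did not pass the test. Myc spanned 5.44, 8.69 and 9.43 in oil granuloma and 8.20, 9.26 and 10.32 in lymph node tumors, a difference of -0.80 ± 0.34 with an adjusted p of 0.23, and without oil granuloma tumors 1 and 5 it was -0.43 ± 0.22 with 0.24. Of 25 tested genes of MYC and its targets 0 were called, with a median of 0.02. Il6 was detected in 5 oil granuloma tumors and 1 lymph node tumor and Il6st, the signalling chain of its receptor, in 2 and 0, so neither was tested. Il6ra, the binding chain, differed by 0.28 ± 0.34, the transcription factor Stat3 by 0.13 ± 0.21 and its feedback inhibitor Socs3 by 0.15 ± 0.39, with adjusted p-values of 0.71, 0.8 and 0.88. In the list of the IL-6 receptor, JAK and STAT3, 0 of 16 genes were called and the median was 0.07; these p-values do not show that the tumor kinds are alike in this pathway.

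Markers of the lymph node itself also overlapped. Of 12 tested genes of lymph node stroma and high endothelium 0 were called, with a median of -0.48. The stromal chemokines Ccl21a and Cxcl13, which place T and B cells in the node, differed by -0.96 ± 0.73 and 0.75 ± 0.50 with adjusted p-values of 0.52 and 0.46, and 11 of 14 oil granuloma tumors had Ccl21a detected against 10 of 11 lymph node tumors. T cell genes had 0 of 10 called, and Cd3e, a chain of the T cell receptor complex, differed by -0.20 ± 0.45 with 0.86. Proliferation genes had 0 of 23 called, 20 of them below 0 against 44.6% of all genes, and a median of -0.19. The cyclins Ccnd1 and Ccnd2 differed by -0.12 ± 0.32 and -0.19 ± 0.18 with adjusted p-values of 0.88 and 0.61.

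**Figure D4:**
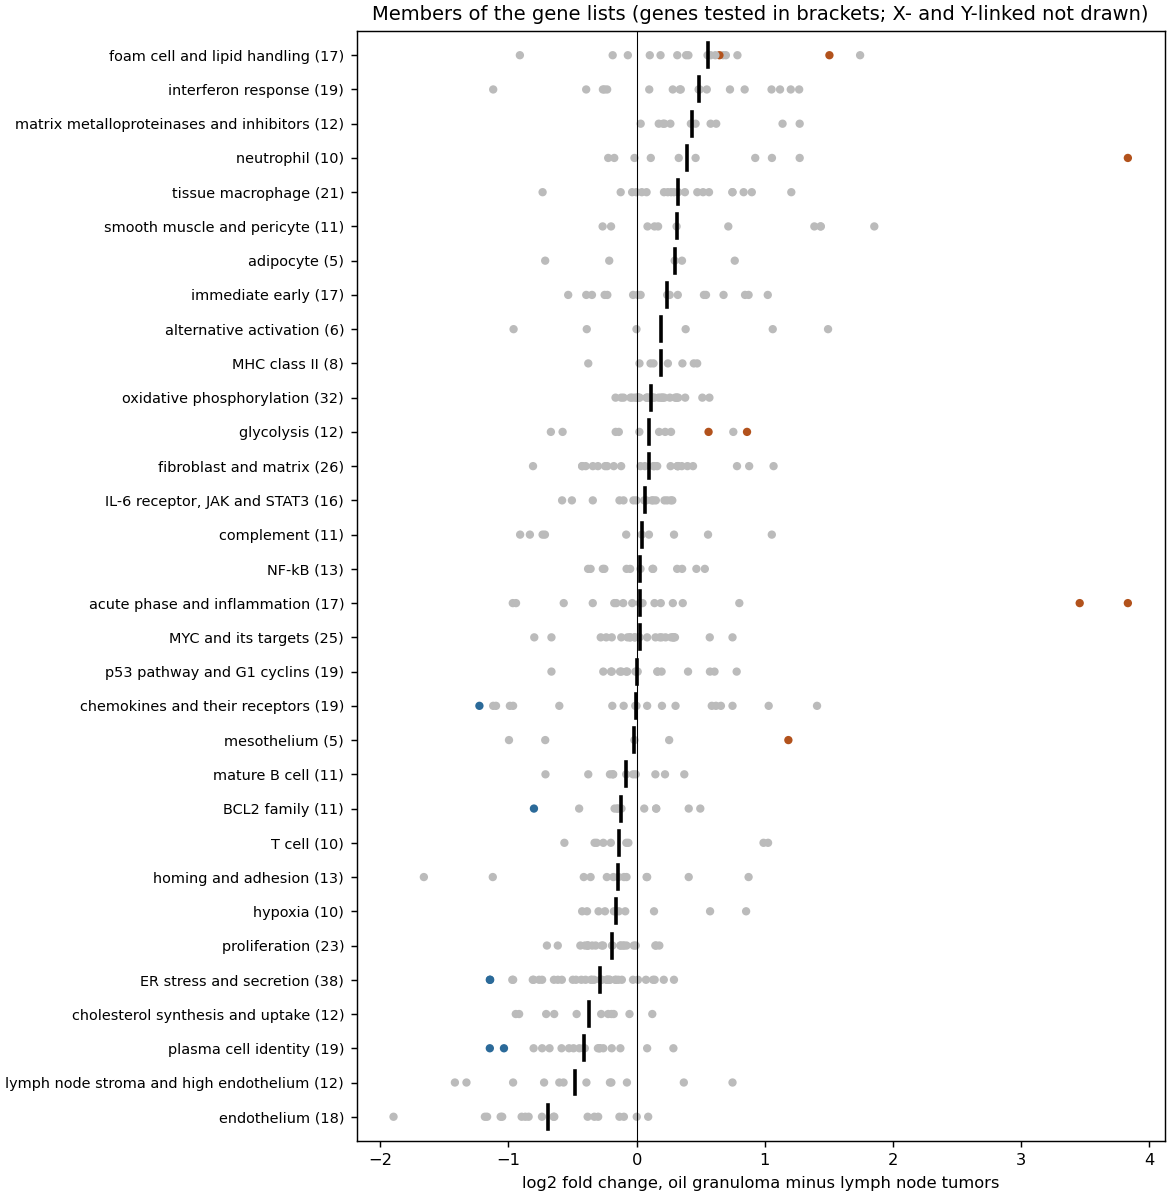
Log2 difference between oil granuloma and lymph node tumors for the members of 32 gene lists with at least 5 genes tested, 1 point a gene; black bars are list medians, and coloured points passed an adjusted p of 0.05. Medians run from -0.69 for endothelium to 0.55 for foam cell and lipid handling, and no list has more than 2 coloured points.

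The oil granuloma tumors varied more among themselves than the lymph node tumors. The median SD of a gene was 0.55 over the former and 0.34 over the latter, and 84.8% of genes had the higher SD in the oil granuloma group. Without oil granuloma tumors 1 and 5 the figures were 0.39 and 65.2%. Correlations between arrays ran from 0.699 to 0.983 within the oil granuloma group (median 0.912), from 0.899 to 0.971 within the lymph node group (median 0.941) and from 0.702 to 0.957 between the groups (median 0.918). The median for tumors of different kind lay between those of the groups.

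Histone genes, a family chosen after values were seen, were lower in part. All 13 histone H4 genes on the array lay below 0, 9 were called lower and the median was -0.92. Over all tested genes 44.6% lay below 0 and 1.06% were called lower. H4c14, H4c12 and H4c17 differed by -1.35 ± 0.32, -1.30 ± 0.29 and -1.20 ± 0.27 with adjusted p-values of 0.024, 0.02 and 0.021. Of 11 tested H2B genes 2 were lower, with a median of -0.62, while 0 of 9 H3 genes and 0 of 14 H2A genes were called, with medians of -0.24 and 0.03, and 0 of 2 H1 genes, with a median of -0.05. The mean of the H4 genes ran from 6.68 to 8.30 in the oil granuloma tumors and from 6.94 to 9.16 in the lymph node tumors, so the groups overlapped. The H4 genes are near-identical copies that their probes may not separate, so they are not 13 separate measurements. Without oil granuloma tumors 1 and 5, 11 H4 and 9 H2B genes were lower; with median scaling 3 and 0; without the tumors of raised pancreas mean or with Eif2s3y as a covariate 0 of both, with all 13 H4 genes below 0 in each case. In the proliferation list 0 of 23 genes were called, 20 lay below 0 and the median was -0.19; its part in the histone values was not tested.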

How the data were processed

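Total RNA of 25 whole tumors was measured on Illumina mouse arrays, and the deposited table holds, per array, linear probe intensity, not normalized by the authors, and a detection score, deposited as a fraction from 0 to 1, from which 1 minus the score was read as the detection p. How the authors made this fraction is not given in the sources used here. The authors' deposited log2 values, from Partek per the submitters' processing notes, were an alternative. Probe names came from the platform annotation: 34885 of 45281 probes had 1 gene symbol, 18 several and 10378 none. Intensities were corrected and quantile-normalized with limma's neqc (limma 3.58.1 in R 4.3.3, offset 16). A gene is its brightest probe, tested if detected (p under 0.05) on at least 11 of the 25 arrays. Group means were fitted with lmFit and eBayes, two-sided, with Benjamini-Hochberg adjustment over 8970 genes. The number of arrays limits the precision. The highest correlation between any 2 arrays was 0.994, so no 2 hold the same values.

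Tumors were grouped by title. Named genes are the 12 greatest and 12 lowest called differences outside pancreas and X- or Y-linked genes, up to 3 called members of each list and direction, and 25 fixed genes of the tumor and its tissue. Some of the fixed genes are not reported here. The members, the 45 lists and the tests were chosen with earlier results of these data known; histone, epithelial, claudin, ribosomal and immunoproteasome families were added after values were seen. Alternatives changed the normalization, background, filter, probe choice, weights and covariates, and left out tumors. The fit was tested on simulated data. Relations used 100000 permutations, and their pairs of gene and list were chosen after the differences were seen.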

Additional observations from a re-analysis of the deposited data

How the results depend on the processing

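The 195 calls, of which 68 had a size of at least 1, with 100 higher and 95 lower, depended on the settings. Sizes depended on the background step: the median size of the 195 genes was 0.83 in the main fit and 0.51 in the deposited log2 values. Without background correction it was 0.49. In these 2 alternatives 220 and 202 genes were called. Leaving out 1 tumor at a time gave 101 to 439 calls, 43 to 89 of size at least 1, 44 to 290 higher and 50 to 149 lower; the extremes were tumors 5 (oil granuloma) and 9 and 10 (lymph node). In the order called, of size at least 1, higher and lower, the counts were 48, 33, 14 and 34 with median scaling, 857, 133, 550 and 307 with array weights, 1, 1, 0 and 1 with Eif2s3y as a covariate, 3, 3, 0 and 3 among tumors with Xist and no Eif2s3y, 35, 28, 17 and 18 without the tumors of raised pancreas mean, and 25, 16, 13 and 12 at an adjusted p under 0.01. With the pancreas mean as a covariate 125 genes were called, 64 higher and 61 lower; without oil granuloma tumors 1 and 5, 578, 379 and 199; with all 28 arrays normalized together, 327, 178 and 149. Without a filter on dim probes 122 were called, 42 of size at least 1 and 54 lower. Those of size at least 1 numbered 15 with the deposited values and 12 without background correction. With the replicate number as a block 81 genes were called, 46 higher and 35 lower. The tumor numbers used here follow the order of samples within each group, and no sample number in the titles is shared between groups. The labels therefore give no pairs, and the blocked fit carries no pairing. Deviations of the 11 same-numbered tumors correlated at -0.08 to 0.25 (median 0.04), and 0 tumors correlated best with their own number.

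No called named gene changed sign in any alternative run, while 9 uncalled ones did so in at least 1, among them Cxcl13 (-0.51 to 1.38) and Col1a1 (-0.26 to 0.68). Of the 49 named genes tested all 49 kept their side of the threshold without oil granuloma tumors 1 and 5 and with array weights. With Eif2s3y as a covariate 32 called genes lost their call, and with median scaling 17. Genes with levels near background, such as Ly6k and Muc1 in oil granuloma tumors and Chil1 in some lymph node tumors, have differences that the background correction sets in part: without it they were -1.18, -1.82 and 2.46 on the log2 scale. The cause of the changes in count was not tested.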

Other observations

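Of 71 tested genes of mitochondrial ribosomal proteins, a family chosen after values were seen, 2 were higher, against 1.11% of all genes, 0 were lower and 14 lay below 0, against 44.6% of all genes, with a median log2 difference of 0.16, while the 51 cytosolic ribosomal protein genes had 0 calls and a median of 0.06. The called genes were Mrpl38 at 0.72 ± 0.18 and Mrps18c at 0.60 ± 0.16, with limma adjusted p-values of 0.033 and 0.048. A dimmer probe of Mrpl38 gave 0.31. Dap3, which encodes another protein of the small mitochondrial ribosomal subunit, was higher by 0.62 ± 0.11 with an adjusted p of 0.0041, and its 4 probes gave 0.39 to 0.69. Without oil granuloma tumors 1 and 5, 17 of the 71 were higher; with median scaling 0 were.

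Stc1, a secreted glycoprotein hormone, and Tnfrsf22, a decoy receptor of the TNF family in mouse, were lower in the oil granuloma tumors, at -1.43 ± 0.23 and -1.38 ± 0.23, with adjusted p-values of 0.0027 and 0.0037. Stc1 had lowest, median and highest levels of 4.44, 5.46 and 6.28 against 5.97, 6.82 and 7.53, and 12 of 14 oil granuloma tumors lay below all lymph node tumors. Tnfrsf22 spanned 4.75, 6.04 and 6.53 against 6.27, 7.19 and 8.37, but its dimmer probe gave -0.42. Sema6d, a membrane semaphorin, was lower, at -1.18 ± 0.22 with 0.0067. Mt1, the metallothionein that binds zinc and copper, was higher by 0.73 ± 0.19 with 0.036. All of these genes were chosen after their values were seen.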
